A study of Mus musculus with 6 samples.

Results

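Spi1, the gene of the transcription factor PU.1, and 9 other members of the ETS family (Spib, Gabpa, Elk3, Elk4, Etv6, Ets1, Ets2, Elf1 and Elf4) were followed in adult mouse hematopoietic stem cells (HSCs). They were chosen as every probe set, that is every group of array probes summarised as 1 value, whose only gene symbol in the platform annotation was one of these names, which gave 25 of 45037 probe sets and 10 of 18193 genes. The family members Fli1 and Erg were not part of this choice. Total RNA of sorted cells was hybridised to 6 Affymetrix arrays, 3 for wild-type mice and 3 for mice homozygous for a PU.1 knock-in allele (PU.1 ki/ki). All mice were taken as adults, although a free-text description, set aside here, speaks of embryos. The sort kept lineage-negative cells that carried Sca1, cKit and CD150 and lacked CD48. The labels give no further description of the knock-in allele, the strain, or the number of animals behind each array, so the p-values measure only how far these samples differ from each other, which may be technical. In published work on such mice the knock-in alters a PU.1 binding site in the upstream regulatory element of Spi1, a distal enhancer.

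ETS factors share a winged helix-turn-helix domain that binds DNA around a GGAA core, and they differ in their partners and in whether they activate or repress. PU.1 directs myeloid and B cell development, acts in a dose-dependent way, and binds regulatory elements of its own gene, which is the autoregulation named in the title of the series. In HSCs PU.1, GABP, ETV6 and ELF4 have each been tied to the upkeep or the cycling of the stem cell pool. The comparison asked whether these transcripts were at other levels in PU.1 ki/ki than in wild-type HSCs.

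Values are array intensities on a linear scale, listed for replicates 1, 2 and 3 of a group and summarised as mean ± SD (n = 3). Differences are on the log2(intensity + 1) scale, PU.1 ki/ki minus wild type, from a limma fit over all probe sets, with a 95% interval and with p adjusted by Benjamini-Hochberg over the whole table. No member passed an adjusted p of 0.05, and 0 of 45037 probe sets did (0%), so every difference below is given as a measured value and not as a change. Unadjusted p was under 0.05 for 6 of the 25 member probe sets, against 8.28% of all probe sets. Groups that do not overlap are those in which all 3 arrays of one group lie above all 3 of the other. For a single probe set the smallest two-sided exact permutation p that 3 arrays against 3 allow is 0.1.

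The wild-type arrays differed more among themselves than the PU.1 ki/ki arrays. Wild-type replicates 2 and 3 read low at 11.5% and 11.3% of their bright probe sets, against 0.119 to 1.12% on the other 4 arrays. Low means 4-fold or more under the median of the remaining 5 arrays, where that median was 512 or more. Wild-type replicates 2 and 3 are called the arrays with lost signal below, a name for these low readings only. High readings were not counted, and the cause was not tested. The Gapdh controls gave a 3'/5' ratio of 6.11 and 6.68 on these replicates and of 2.98 to 4.75 elsewhere. Of the sorting genes, Kit read 374 to 1622 on the 6 arrays and Cd48 75 to 704, while Slamf1, which encodes CD150, read 696, 1525 and 170 in PU.1 ki/ki and 440, 54 and 42 in wild type. Sca1 (Ly6a) was not measured by a probe set of that symbol alone. The HSC regulators Mecom and Hlf read 1093 to 2326 and 1083 to 2678. The granule gene Mpo, a neutrophil marker, read 3027 to 6717 on all 6 arrays. Each of the 9 neutrophil markers averaged lower in PU.1 ki/ki on the log2 scale (median -0.40), beside 51.9% of all genes that were higher. None of the 9 passed, 2 did not overlap (Ctsg and S100a8), and 1 was higher without PU.1 ki/ki replicate 3. Beside them, 12.7% of all genes did not overlap in either direction, and 6.39% were lower without overlap. The summed intensity of the 9 was 15389 to 22016 in PU.1 ki/ki and 20841 to 29054 in wild type.

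Spi1 itself differed little between the groups. Its 1 probe set, 1418747_at, read 170, 212 and 161 in PU.1 ki/ki and 158, 195 and 199 in wild-type HSCs, or 181 ± 27.2 against 184 ± 22.6. The values of the groups interleaved, and the lowest and the highest array were of different groups, 158 in wild type and 212 in PU.1 ki/ki. The difference was -0.03 with a 95% interval of -0.48 to 0.42 (adjusted p = 0.992), which in folds is 0.718 to 1.34. The interval depended on the scaling. The difference was -0.23 (-0.79 to 0.34, or 0.577 to 1.26 in folds) after a further quantile normalization and -0.13 (-0.69 to 0.43, or 0.618 to 1.34 in folds) after centring the arrays on their medians. In bulk samples like these, fewer cells of a type and less RNA per cell cannot be told apart. Spi1 varied little on the wild-type arrays, with a log2 SD of 0.18 there and 0.21 in PU.1 ki/ki, beside medians of 0.58 and 0.31 over 18193 genes, each read from its brightest probe set. On the arrays with lost signal Spi1 read 195 and 199, above the 158 of wild-type replicate 1. Against wild-type replicate 1 alone the difference was 0.18, and over the single arrays left out in turn it lay between -0.14 and 0.05.

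The probe sets that followed Spi1 most closely over the 6 arrays, each centred on its own mean, were those of the ribosomal protein gene Rps3a1, with a largest deviation of 0.096 on the log2 scale, the translation factor Eif5 (0.11) and the mitochondrial chaperone Timm10 (0.12). This likeness is a weak description, since 101 of 16605 named probe sets with a mean log2 value of at least 6 stayed within 0.25 of Spi1 on every array. Their differences were 0.04, -0.04 and -0.0084.

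Spib, the relative of PU.1 that acts in B cells and plasmacytoid dendritic cells, read 11, 28 and 20 in PU.1 ki/ki and 37, 48 and 24 in wild-type HSCs at its 1 probe set. The lowest wild-type array lay inside the PU.1 ki/ki range, and most values were close to or below the array medians of 41 to 46 and not far above the table's minimum of 10, so the size is uncertain. The difference was -0.89 (interval -1.98 to 0.20, adjusted p = 0.644), the lowest of the 10 genes, and it was -0.54 without PU.1 ki/ki replicate 1. Markers of B cells read lower beside it. All 7 measured of 8 averaged lower in PU.1 ki/ki (median -0.44), beside 51.9% of all genes that were higher. The median was -0.76 without wild-type replicate 1 and -0.285 without wild-type replicate 2. It was -0.11 over the 3 markers whose mean level was not under the median of all probe sets. None of the 7 passed, and 1, Cd79a, did not overlap, near the 12.7% of all genes, with 21, 27 and 26 against 32, 42 and 28. Against wild-type replicate 1 alone 3 of the 7 were higher. Their summed intensity was 391 to 472 in PU.1 ki/ki and 366 to 895 in wild type, and the B cell factors Pax5 and Ebf1 read 19 to 63 on the 6 arrays. Their part in the Spib result was not tested. Other marker lists went both ways. All 5 measured mast cell markers were lower (median -0.42), as were 5 of 7 T and NK cell markers (median -0.54). All 7 macrophage and monocyte markers were higher, as were 5 of 6 megakaryocyte markers and 2 of 6 erythroid markers. Only 1 of the mast cell markers had a mean level not under the median of all probe sets. The same held for 3 of the T and NK cell markers and 3 of the macrophage and monocyte markers.

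**Figure D1:**
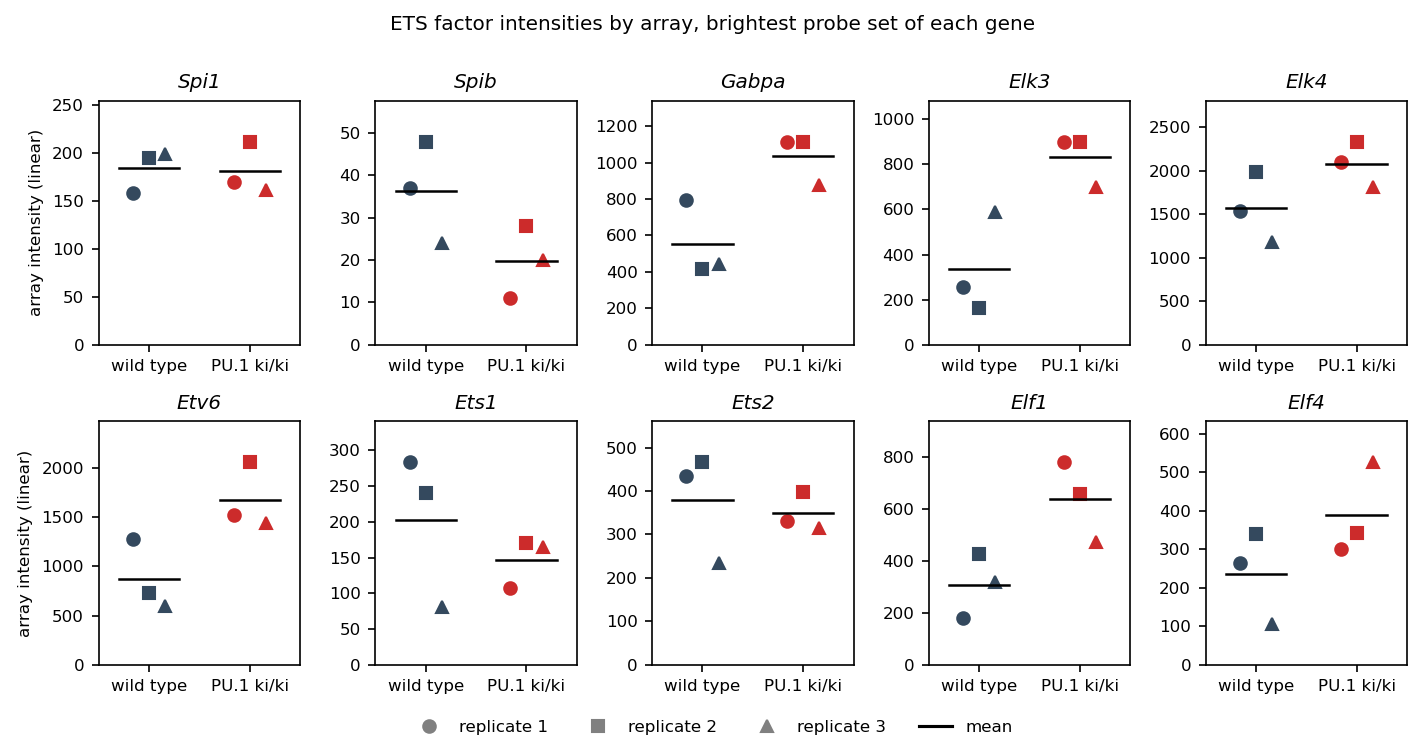
Array intensity (linear axis from 0) at the brightest probe set of each of the 10 ETS factors, with 1 symbol per array and a line at each group's mean. Spi1 lies at 158 to 212 on all 6 arrays, while Gabpa, Elk3, Etv6 and Elf1 show all 3 PU.1 ki/ki arrays above all 3 wild-type arrays.

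At the brightest probe set of each gene, 4 of the 10 ETS factors, Gabpa, Elk3, Etv6 and Elf1, had groups that did not overlap (40%), against 12.7% of all genes. All 4 were higher in PU.1 ki/ki, a direction that held for 6.33% of all genes. After a further quantile normalization 3 of the 10 did not overlap, and Elf1 no longer separated. In all, 6 of the 10 were higher, beside 51.9% of all genes, and 4 lower, and the median difference was 0.63, beside 0.01 over all genes. Over the 25 probe sets, 17 were higher and 8 lower, and 7 did not overlap (28%), all of them higher, against 12.1% of all probe sets in either direction, 6.62% higher and 5.46% lower. Over the probe sets, 52.8% of all differences were above 0. These 7 belong to 5 genes, the 4 named and Elk4, and probe sets of 1 gene are not independent. Wild-type replicate 3 was lowest of the 6 arrays for 5 of the 10 genes, and the median log2 level of the 10, each centred on its own mean, was -0.59 on it and 0.0058 to 0.33 on the other 5 arrays. Without that array the median difference was 0.29, and against wild-type replicate 1 alone it was 0.37. Adjusted p ranged from 0.463 to 1 over the 25 probe sets.

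The promoters of those 4 genes are shown because their transcripts separated between the groups at the brightest probe set and because the ETS core can be read in them. They come from a set of RefSeq promoters (GRCm38.p6). The set used here held 8 of the 10 genes with 12 start sites, and it had no entry for Spi1 and Ets1. Each runs 5′ to 3′ on the gene's strand, from 250 bases before the start site to 50 after it, with every GGAA or its reverse TTCC in capitals. Gabpa lies at chr16:84834874-84835173 (plus strand), Elk3 at chr10:93311110-93311409 (minus strand), Etv6 at chr6:134035450-134035749 (plus strand) and Elf1, at the first of 2 start sites, at chr14:79480944-79481243 (plus strand).
Gabpa: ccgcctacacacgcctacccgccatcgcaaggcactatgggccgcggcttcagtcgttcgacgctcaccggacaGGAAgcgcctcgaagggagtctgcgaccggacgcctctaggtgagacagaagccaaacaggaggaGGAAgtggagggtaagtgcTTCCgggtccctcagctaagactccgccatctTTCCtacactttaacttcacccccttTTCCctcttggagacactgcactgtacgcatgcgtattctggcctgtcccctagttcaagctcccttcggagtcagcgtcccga
Elk3: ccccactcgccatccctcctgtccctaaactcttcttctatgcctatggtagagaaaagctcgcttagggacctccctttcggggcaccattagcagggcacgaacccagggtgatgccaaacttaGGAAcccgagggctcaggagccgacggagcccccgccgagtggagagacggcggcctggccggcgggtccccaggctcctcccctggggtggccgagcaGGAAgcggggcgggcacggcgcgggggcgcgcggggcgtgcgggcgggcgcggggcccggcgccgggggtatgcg
Etv6: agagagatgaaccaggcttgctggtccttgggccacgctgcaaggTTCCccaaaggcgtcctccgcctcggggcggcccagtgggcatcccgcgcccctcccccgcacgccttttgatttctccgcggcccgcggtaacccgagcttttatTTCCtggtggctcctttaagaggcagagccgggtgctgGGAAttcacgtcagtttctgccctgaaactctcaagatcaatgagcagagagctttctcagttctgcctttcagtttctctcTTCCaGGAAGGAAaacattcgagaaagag
Elf1: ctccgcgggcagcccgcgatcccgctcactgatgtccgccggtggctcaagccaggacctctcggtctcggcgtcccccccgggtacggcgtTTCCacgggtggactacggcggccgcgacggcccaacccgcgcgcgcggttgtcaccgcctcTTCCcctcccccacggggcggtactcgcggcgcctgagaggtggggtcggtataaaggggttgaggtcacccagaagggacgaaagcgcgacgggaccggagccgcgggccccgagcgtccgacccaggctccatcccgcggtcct

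The core GGAA, searched on both strands, occurs 5 times in the Gabpa window, 2 times in Elk3, 6 times in Etv6 and 2 times in Elf1. It is present in all 12 member windows and in 96% of 32851 promoters of the same length, with a median of 3 per window, so its presence sets no promoter apart. The longer letters GAGGAAGT, a PU.1-type site that contains the core, were found in 2 of the 12 windows, beginning 113 bases before the Gabpa start and 192 bases before the first of 3 Elk4 starts, and in 3.2% of all promoters. CCGGAAGT, an ETS-type site that also contains the core, was found in the same Elk4 window, 68 bases before the start, and in 3.89% of all promoters. A match is a description of letters and does not show binding.

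Gabpa, the DNA-binding subunit of GABP, which pairs with a beta subunit and drives mitochondrial and housekeeping genes, separated at both of its probe sets. Probe set 1450665_at read 1116, 1115 and 878 in PU.1 ki/ki and 796, 418 and 443 in wild-type HSCs, or 1036 ± 137 against 552 ± 211. Probe set 1450664_at read 159, 264 and 202 against 87, 151 and 103. Every PU.1 ki/ki array was above every wild-type array at both, and on the first the wild-type arrays with lost signal were the lowest, while on the second wild-type replicate 1 was. The differences were 0.96 (interval 0.19 to 1.73, 1.95-fold, adjusted p = 0.549) and 0.88 (interval 0.12 to 1.64, 1.84-fold, adjusted p = 0.569). Against wild-type replicate 1 alone they were 0.37 and 1.22.

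The remaining genes around GABP mostly overlapped between the groups, as did most genes on the arrays. Gabpb1, which encodes a beta subunit, read 241, 290 and 455 in PU.1 ki/ki and 164, 365 and 62 in wild type, overlapping (1.03, adjusted p = 0.712). Of 19 measured subunits and targets, 12 were higher and 7 lower with a median of 0.10 (-0.0097 without wild-type replicate 3), and 0 passed. Only Dnmt1 of the 19 did not overlap, beside 12.7% of all genes, so that share does not set the list apart. Dnmt1, the maintenance DNA methyltransferase, read 3981, 4581 and 2973 against 4737, 5482 and 6874, lower in PU.1 ki/ki (-0.57, adjusted p = 0.613). Foxo3, a transcription factor of HSC quiescence, read 1547, 1416 and 1216 against 2138, 2280 and 1526, with an overlap of 1 array (-0.49, adjusted p = 0.616).

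Elk3 and Elk4 are ternary complex factors, which bind with the serum response factor SRF and are switched to activation by ERK kinases; Elk3 is mostly a repressor until phosphorylated. The brightest probe set of Elk3, 1435143_at, read 901, 901 and 699 in PU.1 ki/ki and 255, 161 and 590 in wild-type HSCs, or 834 ± 117 against 335 ± 226. The groups did not overlap, and wild-type replicate 3 was nearest to the PU.1 ki/ki arrays here. The difference was 1.51 (interval 0.21 to 2.81, 2.85-fold, adjusted p = 0.566), the largest of the 10 genes at their brightest probe sets. It was 2.02 without wild-type replicate 3 and 1.70 against wild-type replicate 1 alone.

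The other Elk3 probe sets gave a mixed picture. Probe set 1417662_at read 301, 358 and 392 against 252, 169 and 24, also without overlap (1.77, interval -0.60 to 4.14), with the value of 24 on wild-type replicate 3, and the difference was 0.75 without that array. Probe set 1448797_at read 596, 536 and 338 against 338, 409 and 132, with overlap (0.85, and 0.36 without wild-type replicate 3), and 1445886_at read 104, 79 and 138 against 91, 198 and 73, with no clear order (-0.07). So wild-type replicate 3 was the highest wild-type array at the brightest Elk3 probe set and the lowest at the other 3.

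Elk4 was higher at 3 of its 4 probe sets and separated at 1. The brightest, 1427162_a_at, read 2095, 2334 and 1816 in PU.1 ki/ki and 1542, 1983 and 1177 in wild-type HSCs, with wild-type replicate 2 inside the PU.1 ki/ki range (0.43, interval -0.17 to 1.04, adjusted p = 0.666). It was 0.24 without wild-type replicate 3. Probe set 1447571_at read 533, 450 and 394 against 273, 207 and 164, with all arrays of one group above the other. Its difference of 1.11 (interval 0.49 to 1.73, 2.16-fold, adjusted p = 0.463) had the lowest p of the 25, and it was 0.74 against wild-type replicate 1 alone. Probe set 1450549_s_at differed by 0.20, and by 0.017 without wild-type replicate 3 and 0.46 without wild-type replicate 2. The dim 1422233_at, at 21 to 29 on 5 arrays and 106 on wild-type replicate 3, differed by -0.51, and by 0.18 without that array.

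**Figure D2:**
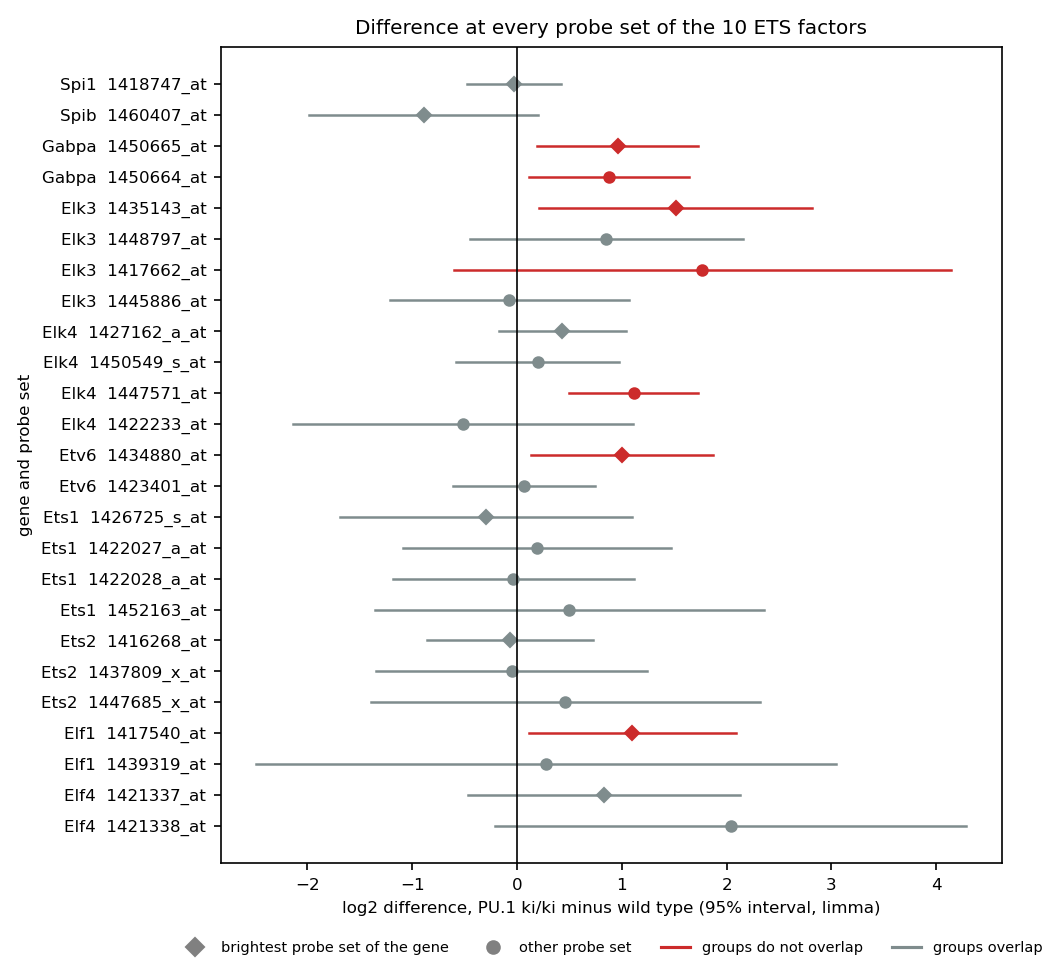
Log2 difference of PU.1 ki/ki against wild-type arrays with its 95% interval (horizontal axis) at each of the 25 member probe sets (vertical axis), brightest probe set of each gene as a diamond and probe sets without overlap in red. The 7 red points lie above 0, and 4 of the 8 genes with several probe sets have points on both sides of 0.

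The ERK branch upstream of these factors and the genes they control showed no common direction. Of 15 measured of 18, 8 were higher and 7 lower (median 0.05, and -0.19 without wild-type replicate 3), and 0 passed. Of the 15, 1 did not overlap, beside 12.7% of all genes. That gene was Map2k1, the kinase MEK1, with 230, 367 and 432 in PU.1 ki/ki against 218, 95 and 219 (1.00, adjusted p = 0.625). Srf, the partner of both Elk factors, read 196, 351 and 265 against 708, 711 and 188, with wild-type replicate 3 below all other arrays (-0.79, adjusted p = 0.741).

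Etv6, a repressor with a pointed domain that is needed for adult HSCs, gave different answers at its 2 probe sets. Probe set 1434880_at read 1525, 2062 and 1440 in PU.1 ki/ki and 1281, 728 and 601 in wild type, or 1676 ± 337 against 870 ± 362, without overlap. Here the wild-type arrays with lost signal were the lowest, and replicate 1 was closest to the PU.1 ki/ki arrays. The difference was 1.00 (interval 0.14 to 1.87, 2.01-fold, adjusted p = 0.568), and it was 0.37 against wild-type replicate 1 alone. Probe set 1423401_at read 1231, 1080 and 781 against 739, 1127 and 1085, fully interleaved (0.07, interval -0.61 to 0.75, adjusted p = 0.966). Which transcripts each of them reads is not given in the sources used here.

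Of the corepressors that ETV6 recruits, 6 of 9 were measured, 4 higher and 2 lower with a median of 0.35 that was -0.05 without PU.1 ki/ki replicate 1, and 0 passed. The deacetylase gene Hdac1 read 1001, 880 and 1245 against 829, 204 and 145, without overlap but with its low values on the wild-type arrays with lost signal (1.82, adjusted p = 0.602). The scaffold gene Sin3a read 644, 639 and 320 against 1032, 724 and 1793, also without overlap, and lower in PU.1 ki/ki (-1.11, adjusted p = 0.613). So 2 of the 6 were without overlap, 1 in each direction, beside 12.7% of all genes without overlap. Over all genes, 51.9% were higher.

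Elf1, an activator of lymphoid and vascular-type blood genes, read 783, 660 and 475 in PU.1 ki/ki and 181, 427 and 319 in wild-type HSCs at 1417540_at, or 639 ± 155 against 309 ± 123. The groups did not overlap, and the lowest wild-type value was on replicate 1, not on the arrays with lost signal. The difference was 1.10 (interval 0.11 to 2.09, 2.15-fold, adjusted p = 0.58), 0.76 without wild-type replicate 1 and 1.78 against it alone. After a further quantile normalization the groups overlapped and the interval held 0 (0.94, -0.18 to 2.06). Its second probe set, 1439319_at, read 74, 202 and 41 against 30, 287 and 39, so that replicate 2 was the highest array of either group, and the difference of 0.28 had an interval of -2.49 to 3.05.

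Elf4, known as MEF, which promotes the exit of HSCs from quiescence, was higher at both probe sets without separating. Probe set 1421337_at read 300, 342 and 527 in PU.1 ki/ki and 265, 339 and 107 in wild type (0.83, interval -0.47 to 2.12, adjusted p = 0.687). Probe set 1421338_at read 441, 367 and 856 against 429, 51 and 89 (2.04, interval -0.21 to 4.29, adjusted p = 0.62). On the second, wild-type replicate 1 lay within the PU.1 ki/ki range and only the arrays with lost signal were low. Against replicate 1 alone the differences were 0.51 and 0.27. The first was 0.33 without wild-type replicate 3, and the second was 1.40 without wild-type replicate 2 and 2.92 without wild-type replicate 1.

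Among genes that ELF1 and ELF4 are known to bind or activate, 11 of 12 were measured, 8 higher and 3 lower, with a median of 0.41, and 0 passed. The count was 5 higher and the median -0.04 without wild-type replicate 3. Tek, the angiopoietin receptor of quiescent HSCs, read 722, 730 and 523 in PU.1 ki/ki and 321, 341 and 291 in wild type, without overlap and with like values on all 3 wild-type arrays (1.03, adjusted p = 0.4305). The transcription factor gene Lyl1 read 1294, 1043 and 1560 against 849, 346 and 935, also without overlap (0.98, adjusted p = 0.636). Mdm2, the p53 ligase, read 2187, 299 and 682 against 262, 120 and 264, also without overlap, and here the PU.1 ki/ki arrays varied most (1.91, adjusted p = 0.617). So 3 of the 11 were without overlap, all higher in PU.1 ki/ki, beside 12.7% of all genes in either direction and 6.33% higher. Klf4, an ELF4 target tied to quiescence, read 53, 161 and 154 against 286, 44 and 68, with overlap (0.20).

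Ets1 and Ets2, MAP kinase-responsive activators with roles in lymphoid cells and macrophages, showed no separation at any of their 7 probe sets. The brightest of Ets1, 1426725_s_at, read 107, 170 and 165 in PU.1 ki/ki and 284, 241 and 81 in wild-type HSCs. Wild-type replicates 1 and 2 were above and replicate 3 below all PU.1 ki/ki arrays, and the difference of -0.29 (interval -1.69 to 1.10, adjusted p = 0.896) was -0.85 without replicate 3. The other Ets1 probe sets read 14 to 109 and differed by -0.04 to 0.50. The brightest of Ets2, 1416268_at, read 332, 398 and 315 against 434, 467 and 235, again with replicate 3 on the far side of the other wild-type arrays (-0.06, interval -0.86 to 0.73, adjusted p = 0.977). It was -0.38 without that array. The other 2 probe sets of Ets2 differed by -0.05 and 0.46.

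**Figure D3:**
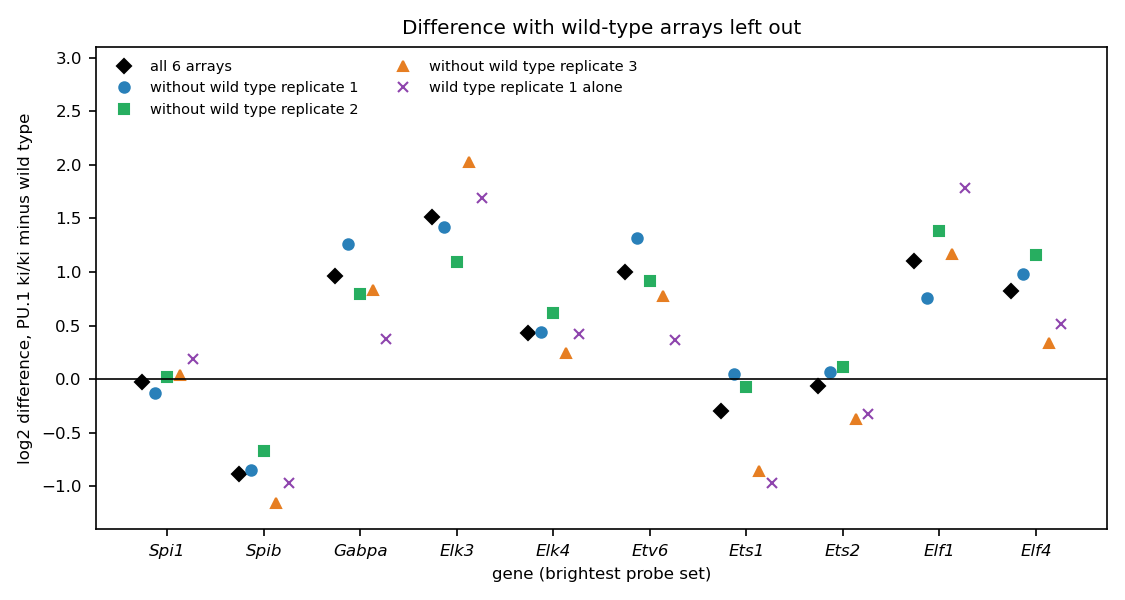
Log2 difference of PU.1 ki/ki against wild-type arrays (vertical axis) for each ETS factor at its brightest probe set, with all arrays, with each wild-type array left out, and against wild-type replicate 1 alone. Gabpa and Etv6 come down to 0.37 against replicate 1 alone, Elk3 and Elf1 stand at 1.70 and 1.78, and Spi1 stays between -0.13 and 0.18.

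Set in order, the differences at the brightest probe sets ran from Elk3 (1.51) over Elf1 (1.10), Etv6 (1.00), Gabpa (0.96), Elf4 (0.83) and Elk4 (0.43) to Spi1 (-0.03), Ets2 (-0.06), Ets1 (-0.29) and Spib (-0.89). The 95% intervals of neighbours in this order overlapped throughout. With the mean of all probe sets of a gene in place of the brightest one, the order was another. Elf4 then had the largest difference (1.43, adjusted p = 0.544), before Elk3 (1.02), Gabpa (0.92), Elf1 (0.69), Etv6 (0.54) and Elk4 (0.31). On that scale 8 of the 10 were higher and 5 did not overlap, namely Gabpa, Elk3, Elk4, Etv6 and Elf4, while Elf1 overlapped. The shares over all genes were not counted on that scale, so these counts have no background beside them. The log2 SD was larger in wild type than in PU.1 ki/ki for 8 of the 10 genes, beside 71.7% of all probe sets.

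Other ETS factors outside the 10 were split in direction, and the brighter ones mostly read higher. Of 12 measured of 14, 6 were higher and 6 lower (median -0.07, and 0.04 without wild-type replicate 1), and 0 passed or separated. Without dim probe sets, those under the median mean level, 5 were left (Etv3, Etv5, Elk1, Elf2 and Erf), of which 4 were higher with a median of 1.00, beside 6 of 9 and 0.83 for the ETS factors chosen. So these relatives were not shown to differ from the 10. Elf2, the close relative of Elf1, read 2463, 1882 and 1498 in PU.1 ki/ki and 1577, 769 and 653 in wild type, with 1 wild-type array inside the PU.1 ki/ki range (1.04, adjusted p = 0.602). Etv3 read 503, 646 and 552 against 890, 1647 and 107, with the wild-type arrays on both sides. Etv5 read 493, 255 and 92 against 540, 96 and 26 with overlap (1.02), and Elk1, a ternary complex factor, read 42, 135 and 48 against 74, 42 and 10 with overlap (1.00). Most of the epithelial members, such as Elf5 and Ehf, read 21 to 74. Fli1 and Erg differed by 0.12 and 0.06.

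Partners and antagonists of PU.1 were 8 higher and 10 lower of 18 (median -0.12), with 0 passed. Of the 18, 3 were without overlap, beside 12.7% of all genes in either direction, so that share does not set the list apart. All 3 were lower in PU.1 ki/ki, a direction that held for 6.39% of all genes. The median was 0.08 without wild-type replicate 2 and 0.04 over the 14 that were not dim. Cebpb, a myeloid partner, read 172, 97 and 134 against 229, 485 and 323 (-1.33, adjusted p = 0.509). Myb, a progenitor factor, read 3123, 2265 and 3128 against 5035, 4655 and 3161 (-0.58, adjusted p = 0.621), with wild-type replicate 3 only just above the PU.1 ki/ki arrays. Gata1, the erythroid factor that opposes PU.1, read 189, 251 and 436 against 64, 238 and 208 with overlap (0.90, adjusted p = 0.714), and Gata2 read 3448, 2359 and 2141 against 2369, 1520 and 1573 with overlap (0.54, adjusted p = 0.66).

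Known targets of PU.1 were 16 higher and 13 lower of 29 measured (median 0.17), with 0 passed. Of the 29, 5 were without overlap, beside 12.7% of all genes, so that share does not set the list apart. The median was -0.20 and 9 were higher without wild-type replicate 3. Higher without overlap were Lsp1, a leukocyte actin-binding protein, with 1344, 780 and 1104 against 130, 290 and 263 (2.28, adjusted p = 0.4305), Csf2ra, the GM-CSF receptor chain, with 523, 321 and 244 against 202, 60 and 202 (1.35, adjusted p = 0.627), and Btk. The kinase gene Btk read 174, 242 and 262 against 128, 67 and 81 (1.32). Lower without overlap were the Fc receptor Fcgr3, with 114, 188 and 164 against 480, 334 and 252 (-1.17, adjusted p = 0.51), and Cd79a. Tyrobp, a myeloid signalling adaptor, read 1136, 1220 and 870 against 1733, 2501 and 982 with overlap (-0.61).

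Markers of macrophages and monocytes read higher beside this list. All 7 measured of 9 averaged higher in PU.1 ki/ki (median 0.72), beside 51.9% of all genes, and 4 did against wild-type replicate 1 alone. None of the 7 passed, and 2, C1qb and C1qc, did not overlap. Beside them, 12.7% of all genes did not overlap in either direction, and 6.33% were higher without overlap. Their summed intensity was 599 to 2037 in PU.1 ki/ki and 319 to 961 in wild type, C1qb read 10, the lowest value the table holds, on each wild-type array, and Adgre1, which encodes F4/80, read 10 to 25 on the 6 arrays. Their part in the results on PU.1 targets was not tested.

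**Figure D4:**
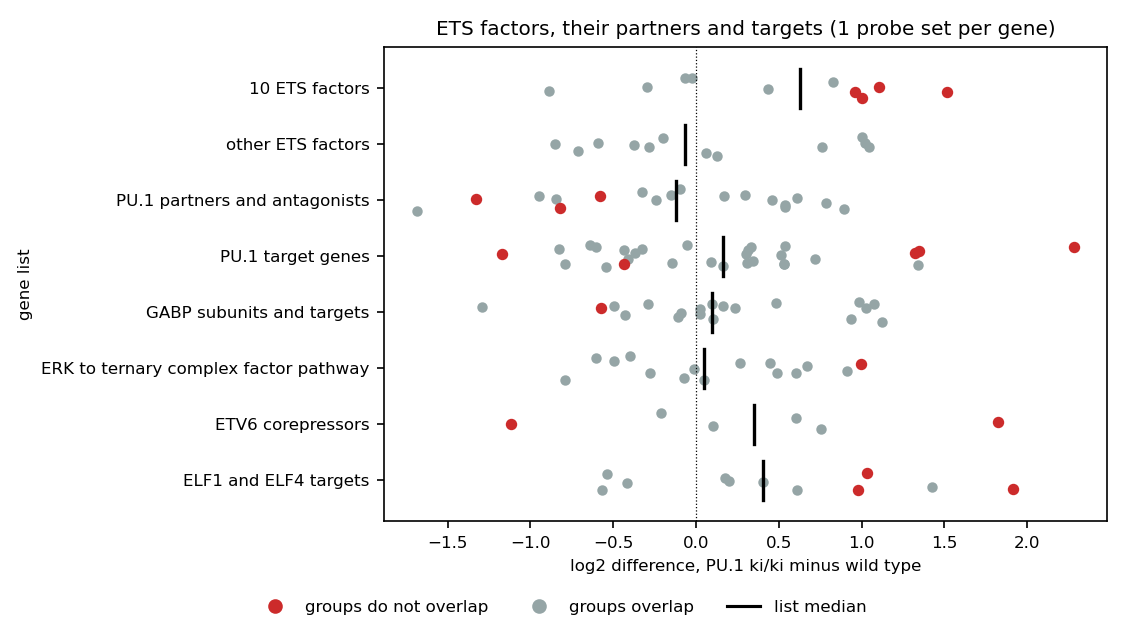
Log2 difference of PU.1 ki/ki against wild-type arrays (horizontal axis) for each gene of the 10 ETS factors and of the lists of relatives, partners and targets, 1 probe set per gene, with a line at each list's median and genes without overlap in red. The median of the 10 ETS factors is 0.63, and the medians of the other 7 lists lie between -0.12 and 0.41.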

How the data were processed

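The deposited series table gave 1 intensity per probe set and array, made by the authors with RMA per the submitters' processing notes; its version is not stated in the labels. RMA usually ends on a log2 scale, but the table held whole numbers from 10 to 27574 on a linear scale; the conversion and the floor are not described. No further normalization was applied. Of 45101 entries, 64 controls were left out and no column was unused. The platform annotation named 34945 probe sets with 1 gene symbol, left 932 with several unnamed, and did not list 9160; 34741 matched RefSeq by gene number with 0 symbols updated.

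Groups and replicate numbers came from the sample titles; a free-text description that speaks of embryos was set aside. Log2(intensity + 1) was fitted in limma 3.58.1 (R 4.3.3, lmFit and eBayes, genotype only), with Benjamini-Hochberg adjustment and a threshold of 0.05. For each gene the probe set with the highest mean led. The members, the lists and the naming rule (all members; in other lists up to 3 genes of lowest p in each direction, or any member of lists of 14 or fewer; for Spi1, the 3 probe sets with the smallest largest deviation) were chosen with earlier results of these data known. Alternatives were a further quantile normalization, median centring, a pseudocount of 16, leaving out dim probe sets, a trended robust prior, array weights, a replicate block, each array left out, wild-type replicates 2 and 3 left out together, and the mean of a gene's probe sets. The labels do not say that replicate numbers pair arrays, so same-numbered arrays were not taken as pairs. Such arrays did not deviate together (correlations of -0.02 to 0.02). The steps were tested on simulated data. The number of arrays limits the precision. Figures used matplotlib 3.10.9.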

Additional observations from a re-analysis of the deposited data

How the results depend on the processing

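Data were simulated with 3 arrays per group and, for each probe set, 1 spread pooled over both groups, though wild type varied more. Of 100 probe sets changed 4-fold among 45037, 0 passed, while 90 had an unadjusted limma p under 0.05. So the absence of calls does not show equal levels. No member passed under any of 354 refits of the 25 probe sets; the lowest adjusted p was 0.144 (Gabpa, without wild-type replicate 1). The sign held in all refits for 13 probe sets and turned in 37 refits of the other 12; the cause was not tested. Spi1 read 0.0088 with array weights and 0.18 against wild-type replicate 1 alone. Against that array alone Elk3 1445886_at read 0.19 and Ets1 1422028_a_at 0.74, and the last read 0.085 with array weights. Etv6 1423401_at read -0.040 after both scalings, Ets1 1422027_a_at -0.0049 after quantile normalization, and the means of all probe sets were 0.091 for Ets1 and 0.12 for Ets2. With single arrays left out, the ranges were -0.14 to 0.052 for Spi1, -0.36 to 0.35 for Elk3 1445886_at, -0.96 to 0.18 for Elk4 1422233_at, -0.13 to 0.25 for Etv6 1423401_at, and for Ets1 -0.85 to 0.044 (1426725_s_at), -0.16 to 0.63 (1422027_a_at), -0.42 to 0.20 (1422028_a_at) and -0.23 to 1.09 (1452163_at). For Ets2 they were -0.38 to 0.12 (1416268_at), -0.58 to 0.35 (1437809_x_at) and -0.28 to 0.98 (1447685_x_at), and for Elf1 1439319_at -0.34 to 1.29.

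The median difference of the 10 genes ranged from 0.29 (without wild-type replicate 3) to 0.71, and 4 to 7 did not overlap, with single arrays left out; fewer arrays overlap less easily. After quantile normalization 3 did not overlap, and Spi1 had its lowest value, -0.23. Against wild-type replicate 1 alone all 10 lay outside the PU.1 ki/ki range, 7 of them higher in PU.1 ki/ki, as did 23199 of 45037 probe sets. Over all probe sets, 5438 did not overlap, 8790 after centring, 3108 without dim probe sets and 8214 to 13637 with single arrays left out. At an unadjusted p under 0.05 there were 3731, 1701 without dim probe sets, 3369 with the replicate block and 2535 to 7183 with single arrays left out, most without wild-type replicate 1. Centring moved the median of all probe sets to -0.11 and quantile normalization to -0.04, and the share of those at p under 0.05 that were higher from 55.5% to 42.8% and 41%. The replicate block changed no call.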
